A study of Danio rerio with 9 samples.

Results

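The 6 libraries described here are the 3 of wild-type zebrafish embryos and the 3 of kdm4aa knockout embryos, out of 9 in the series, taken by the genotype that the labels give. The rest are from a knockout of the paralog kdm4ab and were left out of the fit, so that they did not enter the estimate of the spread. Both groups are labelled as embryos with no further agent or treatment, and the stage, the mutant allele, the number of embryos in a library and the number of founder lines are details not given in the sources used here. Messenger RNA was selected with poly-T beads and counted per Ensembl gene. The question behind the comparison was what acts below kdm4aa in knockout embryos, which were slow to develop and had more dying cells, and the study settled on cyp26a1.

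KDM4 enzymes are oxygen- and iron-dependent demethylases that take methyl groups off lysines 9 and 36 of histone H3. The first of these marks is found at silenced chromatin, and the second along the bodies of transcribed genes. An early zebrafish embryo lives at first on RNA and protein laid down by the mother. It then degrades much of that RNA while its own genome is switched on, and Nodal, BMP, Wnt and Fgf signals set the germ layers and axes as an outer epithelial layer forms.

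The libraries held 34325902 to 45298764 counts. A count above 0 was found for 22873 to 23019 genes in wild type and for 22183 to 22545 in the knockout. The blastula factors nanog, at 2335 ± 144 CPM in wild type against 2143 ± 90.3 CPM in knockout embryos, and pou5f3, at 1072 ± 86.6 CPM in wild type against 917 ± 29.4 CPM in knockout embryos, were abundant in both groups. Of 48 hox cluster genes, 10 passed the filter on low counts, and their summed level was 3.94 to 5.38 CPM in wild type and 5.48 to 8.59 CPM in the knockout. CPM is the usual count rate per library, with library sizes scaled by TMM, the trimmed mean of M values. Transcripts of the mitochondrial genome made up 1.88% to 2.08% of the counts in wild type and 2.27% to 2.77% in the knockout, and cytosolic ribosomal protein genes 0.635% to 0.686% and 0.821% to 0.996%. On log2 CPM, 77.9% of the variance lay on the first principal component, which separated the genotypes.

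The transcript of kdm4aa (ENSDARG00000018782) stood at 17.5, 19.98 and 17.98 CPM in wild type against 17.3, 14.3 and 16.6 CPM in knockout embryos. Its level was not shown to differ, with a log2 difference of −0.20 (SE 0.117, adjusted p 0.166) in the quasi-likelihood F-test of edgeR, adjusted by Benjamini and Hochberg's method. The labels of the knockout thus have no check in the amount of kdm4aa RNA. The paralog kdm4ab was at 135 ± 24.9 CPM in wild type against 153 ± 12.05 CPM in knockout embryos (log2 0.18 (SE 0.109, adjusted p 0.176)). The gene singled out by the study, cyp26a1 (ENSDARG00000033999), encodes an enzyme that breaks down retinoic acid and stood at 96.9, 73.4 and 86.9 CPM in wild type against 60.6, 63.1 and 59.07 CPM in knockout embryos. Every knockout library lay below every wild-type library, and such a lack of overlap held for 58.8% of all genes tested. The transcript fell by 0.49 on the log2 scale (SE 0.0973, adjusted p 0.000593), against a median size of 0.74 among all genes with an adjusted p under 0.05. It did not pass the stricter rule described next. Its adjusted p was 0.121 when all 9 libraries, among them the outlying kdm4ab knockout replicate 2 described below, shared 1 estimate of the spread. The study chose cyp26a1 on these samples, so this call is not independent evidence.

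Of 32520 genes in the deposited table, 5618 had no count in the 6 libraries and 18196 were tested. At an adjusted p under 0.05, 4588 genes were higher in the knockout (25.2% of those tested) and 4702 were lower (25.8%), or 51.1% in all. Under the stricter rule, which asks for evidence that a change is larger than 1.5-fold (edgeR's glmTreat, adjusted p under 0.05), 1535 genes were higher (8.44%) and 1911 lower (10.5%), or 18.9% in all. The biological coefficient of variation was 12.3%. The median log2 fold change over all genes was −0.001, with quartiles at −0.47 and 0.40, and that of called genes had a median size of 0.74. Among called genes, 3534 had changed at least 1 log2 unit and 387 at least 4, of which 144 were higher and 243 lower. Fitting with all 9 libraries, which adds kdm4ab knockout replicate 2, called 823 genes higher and 864 lower, against 4642 and 4664 when only that library was left out. In that library 14247 genes had a count, against 22396 and 22025 in kdm4ab knockout replicates 1 and 3. Cytosolic ribosomal protein genes made up 2.85% of its counts, against 0.622% and 0.525%. In the fit with all 9 libraries none of 80 cytosolic ribosomal protein genes and none of 37 Nodal and mesendoderm genes were called, and of 46 epidermal genes tested in that fit 6 were called lower.

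**Figure D1:**
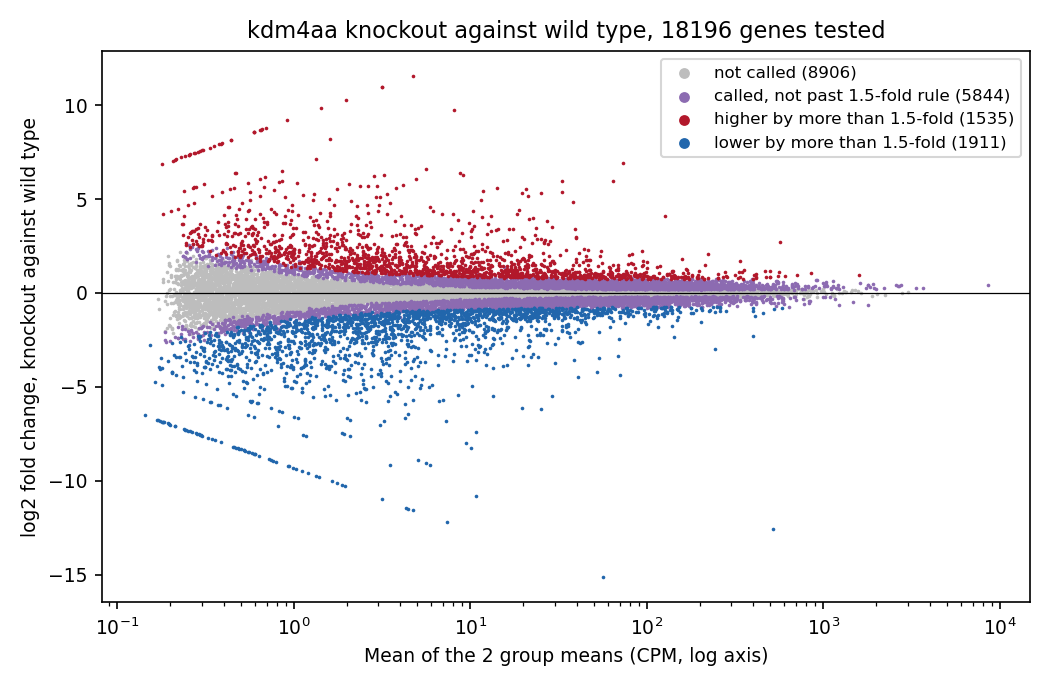
Each point is 1 of the 18196 genes tested, placed by its mean level in CPM (log axis) and by its fitted log2 fold change in the kdm4aa knockout against wild type. The 1535 genes higher and 1911 lower by more than 1.5-fold are coloured, and the straight rows of points at low levels are genes with no count in one of the groups, whose fitted values are not bounds.

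Changes past the 1.5-fold rule were less common among abundant genes. Of 3573 genes with a mean under 1 CPM, 20.2% passed it. Of 3632 genes with a mean of 1 to 5 CPM, 31.9% passed, against 23.2% of 3564 genes at 5 to 20 CPM, 12.2% of 4741 genes at 20 to 100 CPM and 4.53% of 243 genes at 500 CPM or more. Calls of any size were made for 31.1%, 51.7%, 57.7%, 58.9% and 54.7% of the same genes. The 12 largest rises and 12 largest falls in mean CPM are given next.

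The 12 largest rises in CPM included genes of protein folding, translation, nucleotide supply and energy supply. HSP90AB1, the constitutive cytosolic Hsp90 chaperone, was at 1117, 1112 and 1038 CPM in wild type against 2136, 2218 and 1931 CPM in knockout embryos. CAD, which carries out the first steps of pyrimidine synthesis, was at 577, 557 and 538 CPM in wild type against 1157, 1086 and 1216 CPM in knockout embryos. In both cases the groups did not overlap, and the log2 fold changes were 0.94 (SE 0.0734, adjusted p 5.83e-08) and 1.05 (SE 0.0711, adjusted p 1.28e-08). ATP5F1B, the catalytic beta subunit of the mitochondrial ATP synthase, rose from 158 ± 7.12 to 519.9 ± 45.1 CPM, and UCP2, a carrier of the mitochondrial inner membrane, from 388 ± 14.2 to 715 ± 20.5 CPM. CAPRIN1 (ENSDARG00000054272), an RNA-binding protein of stress granules, rose from 424 ± 26.99 to 789.8 ± 9.22 CPM. NASP, a chaperone of histones, rose from 350.3 ± 11.7 to 643 ± 18.4 CPM. A pair of claudins, which build tight junctions, was among them, with cldnd rising from 149.9 ± 20.3 to 982 ± 199.8 CPM and cldng from 212 ± 24.5 to 499 ± 21.9 CPM. RPL12, CTSC and cth1 are described with their groups.

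Cathepsin B had the largest of the 12 falls in CPM. CTSB, a lysosomal cysteine protease, was at 1002, 1064 and 1026 CPM in wild type against 0.140, 0.233 and 0.140 CPM in knockout embryos. Its knockout libraries held 19 counts in all, and the log2 fold change was −12.55 (SE 0.139, adjusted p 6.65e-18). The transcript zgc:100951 fell from 431 ± 66.3 to 55.0 ± 5.06 CPM. RRM2 (ENSDARG00000020711), a small subunit of ribonucleotide reductase, fell from 576 ± 16.6 to 244 ± 33.8 CPM, while the gene of the same symbol ENSDARG00000078069 rose from 487 ± 15.04 to 933 ± 71.0 CPM. MYOF, the membrane repair protein myoferlin, fell from 237 ± 14.8 to 47.2 ± 4.203 CPM, and PPT2, a lysosomal thioesterase, from 304 ± 24.5 to 104 ± 6.14 CPM. The other falls, on the log2 scale, were those of ABCF2 (ENSDARG00000038785) (log2 −1.06), the RNA helicase gene setx (−0.86), zmym4.2 (−0.79), sona (−0.82), TLK2, a kinase of chromatin assembly (−0.97), PIK3C2B (−1.04) and the epithelial adhesion gene epcam (−0.97).

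Genes of cytosolic translation rose more often than they fell. Of 80 tested genes of cytosolic ribosomal proteins (82 listed), 65 rose and none fell, 9 and 0 of them past the 1.5-fold rule, with a median log2 of 0.48. The shares over all genes tested were 25.2% higher and 25.8% lower. The 9 past the 1.5-fold rule became 4 without wild type replicate 3, 5 without wild type replicate 1 or kdm4aa knockout replicate 1, and 14 without kdm4aa knockout replicate 3. They became 4 with DESeq2 and 5 with upper quartile scaling. RPL12, a protein of the large subunit, was at 284, 295 and 288 CPM in wild type against 718, 642 and 587 CPM in knockout embryos, with no overlap (log2 1.17 (SE 0.0796, adjusted p 1.38e-08)). RPS7 rose from 95.7 ± 3.41 to 177 ± 15.19 CPM and RACK1, a scaffold on the small subunit, from 306 ± 11.2 to 525 ± 45.3 CPM. Among members not called, RPLP0 was at 106 ± 4.58 CPM in wild type against 115 ± 19.4 CPM in knockout embryos and RPL6 at 147 ± 5.42 CPM in wild type against 169.6 ± 24.4 CPM in knockout embryos. Summed over the list, the level was 6350 to 6643 CPM in the wild-type libraries and 8467 to 10290.0 CPM in those of the knockout.

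Aminoacyl-tRNA synthetases, which load amino acids onto tRNAs, moved the same way. Of 21 tested aminoacyl-tRNA synthetases (22 listed), 15 rose and none fell, 2 and 0 of them past the 1.5-fold rule, with a median log2 of 0.31. AARS1, the alanyl-tRNA synthetase, was at 144, 128 and 130.1 CPM in wild type against 257, 246 and 264 CPM in knockout embryos (log2 0.93 (SE 0.0750, adjusted p 8.29e-08)). VARS1 rose from 48.2 ± 2.47 to 92.4 ± 1.03 CPM and YARS1 from 113 ± 7.29 to 176 ± 16.9 CPM, whereas NARS1 was at 116 ± 2.44 CPM in wild type against 127 ± 11.7 CPM in knockout embryos and was not called. Of 72 tested translation factor genes (75 listed), 40 rose and 6 fell, 6 and 2 of them past the 1.5-fold rule, with a median log2 of 0.28. The initiation factor genes EIF3B (ENSDARG00000059654), from 101.3 ± 5.88 to 236 ± 2.97 CPM, and EIF5, from 121 ± 6.15 to 272 ± 13.4 CPM, rose, as did EIF3E, from 11.7 ± 1.25 to 57.98 ± 2.57 CPM. EIF4G1, a scaffold of the cap-binding complex, fell from 225 ± 3.74 to 129 ± 11.1 CPM, and eef2a.1, an elongation factor gene, from 51.2 ± 2.83 to 27.3 ± 1.63 CPM. Of 75 tested genes of mitochondrial ribosomal proteins, 21 rose and 4 fell, 4 and 0 of them past the 1.5-fold rule, with a median log2 of 0.20. The 28.0% that rose is close to the 25.2% of all genes tested, and the 4 falls became 9 with upper quartile scaling and 2 without wild type replicate 3 or kdm4aa knockout replicate 1. Of 59 tested genes of ribosome biogenesis, 21 rose and 10 fell, 1 and 0 of them past the 1.5-fold rule, with a median log2 of 0.06. The rises of nop16 (from 26.2 ± 2.26 to 56.4 ± 1.52 CPM) and WDR12 (from 66.1 ± 5.37 to 105 ± 5.57 CPM) stood beside a fall of npm1b, a nucleophosmin gene, from 62.3 ± 2.49 to 38.9 ± 3.59 CPM. The 10 falls became 4 without wild type replicate 1, 5 without wild type replicate 3 and 3 without kdm4aa knockout replicate 1.

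**Figure D2:**
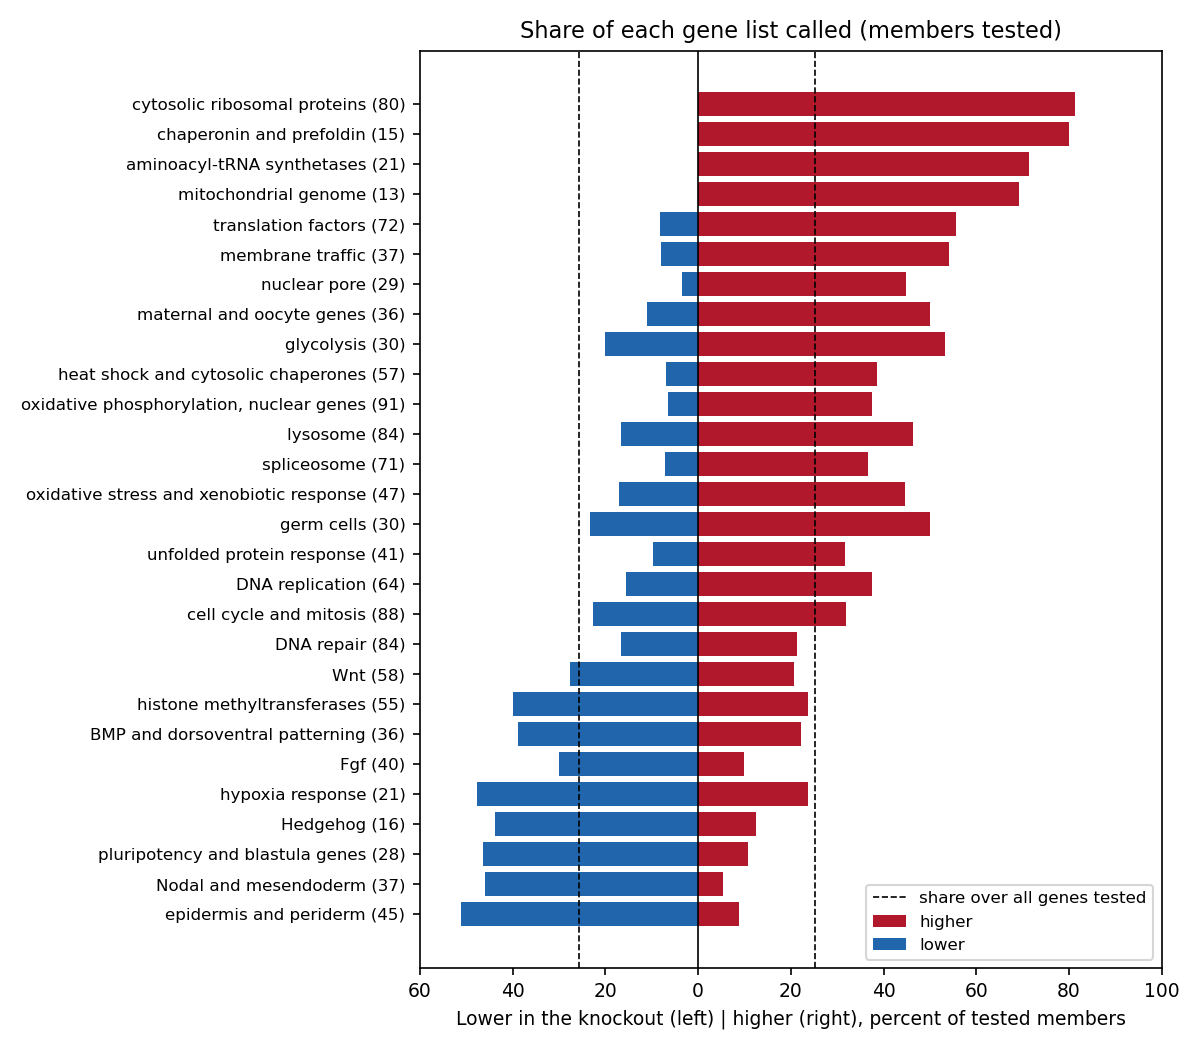
Bars give the percent of each list's tested members (number in brackets) called higher (right) or lower (left) in the kdm4aa knockout at an adjusted p under 0.05. The lists shown were picked from the 69. Some with similar shares in both directions, such as kidney and collagens, are left out. So are some with unequal shares, such as iron and heme, Notch, and antigen presentation. The dashed lines mark the shares over all genes tested, 25.2% higher and 25.8% lower, and the bars run from cytosolic ribosomal proteins, with none lower, to epidermis and periderm, with 23 of 45 lower.

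Genes of cytosolic protein folding rose more often than they fell, while over all genes tested 25.2% were called higher and 25.8% lower. Of 15 tested subunit genes of the CCT chaperonin and prefoldin, 12 rose and none fell, 2 and 0 of them past the 1.5-fold rule, with a median log2 of 0.49. These assemblies fold actin and tubulin. CCT4 was at 61.5, 61.02 and 66.1 CPM in wild type against 107, 122 and 109 CPM in knockout embryos (log2 0.84 (SE 0.0820, adjusted p 6.62e-07)), and PFDN2 rose from 47.6 ± 2.48 to 88.6 ± 3.97 CPM. Of 57 tested heat shock and cytosolic chaperone genes (67 listed), 22 rose and 4 fell, 6 and 1 of them past the 1.5-fold rule, with a median log2 of 0.35. The constitutive Hsp70 gene HSPA8 (ENSDARG00000068992), chosen after its values were seen, rose from 2342 ± 37.2 to 2980.2 ± 155 CPM, and the Hsp90 cochaperone FKBP4 from 162 ± 5.82 to 284 ± 34.2 CPM. HSF2, a heat shock transcription factor, fell from 81.9 ± 2.0003 to 46.5 ± 2.86 CPM.

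In the endoplasmic reticulum (ER), 9 rose and 1 fell of 21 tested ER chaperones and folding enzymes (median log2 0.18). These shares, 42.9% and 4.76%, stood beside 25.2% higher and 25.8% lower over all genes tested. In the same list 1 rose and 2 fell of 7 tested sensors and transcription factors of the unfolded protein response (median log2 −0.07), and 3 rose and 1 fell of 13 tested genes of ER-associated degradation (median log2 −0.02). HYOU1, an ER chaperone, was at 354, 375 and 346 CPM in wild type against 651, 617 and 658 CPM in knockout embryos (log2 0.84 (SE 0.0695, adjusted p 1.15e-07)). CANX, the lectin calnexin, rose from 187 ± 9.61 to 319 ± 25.5 CPM, and PDIA3, a disulphide isomerase, from 142 ± 8.62 to 248 ± 23.6 CPM. The Hsp70 of the ER, HSPA5, chosen after its values were seen, rose from 575 ± 26.1 to 759 ± 100.1 CPM, and P4HB was at 1301 ± 71.1 CPM in wild type against 1349 ± 102 CPM in knockout embryos and was not called. Of 37 tested genes of membrane traffic and protein entry into the ER (38 listed), 20 rose and 3 fell, 5 and 0 of them past the 1.5-fold rule, with a median log2 of 0.26. The genes of the translocon-associated complex SSR1 (from 34.5 ± 3.88 to 78.6 ± 3.40 CPM), SSR2 (from 115 ± 3.93 to 213 ± 6.68 CPM) and SSR3 (from 39.3 ± 1.75 to 67.5 ± 2.98 CPM) all rose, as did SEC61B, a part of the protein channel itself, from 101.3 ± 4.81 to 189 ± 9.39 CPM. Of 29 tested nucleoporin genes, 13 rose and 1 fell, 1 and 0 of them past the 1.5-fold rule, with a median log2 of 0.22. NUP50 rose from 159 ± 10.203 to 264 ± 10.6 CPM.

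**Figure D3:**
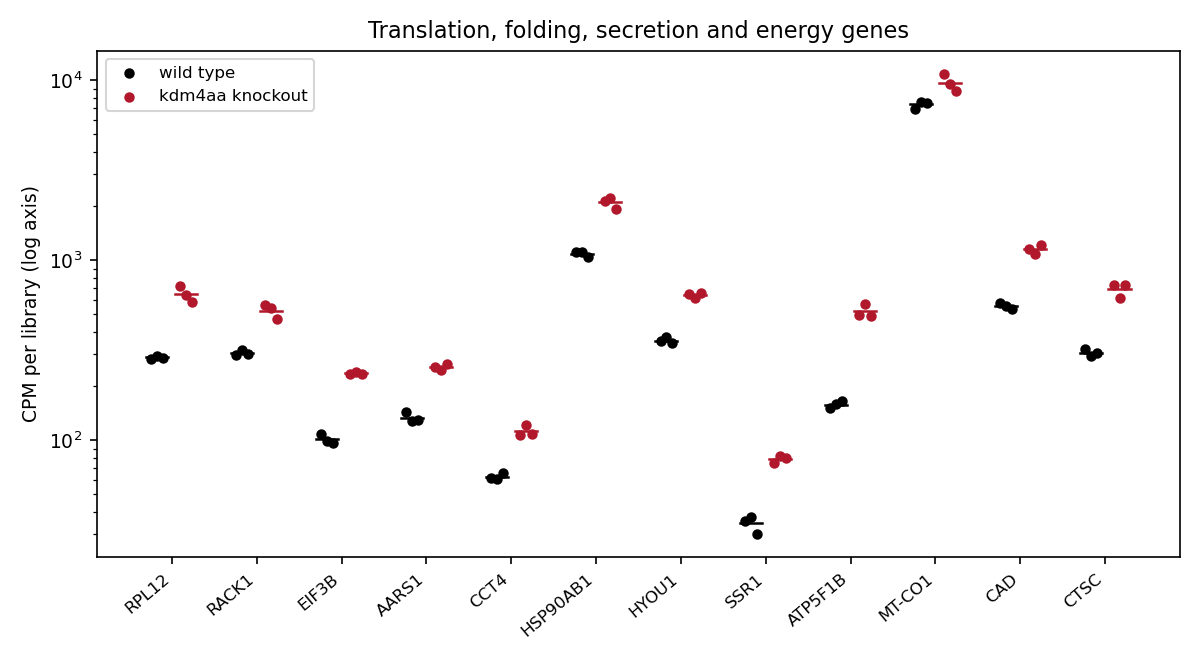
Points are the levels of 12 genes in each library, in CPM on a log axis, with 3 wild-type libraries in black and 3 kdm4aa knockout libraries in red, and short lines at the group means. The genes were picked among those whose groups do not overlap, which held for 58.8% of all genes tested, and RPL12, for example, stood at 284, 295 and 288 CPM in wild type against 718, 642 and 587 CPM in knockout embryos.

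Energy and intermediary metabolism shifted in part. The counts given next stood beside 25.2% called higher and 25.8% lower over all genes tested. Of 13 tested protein-coding genes of the mitochondrial genome, 9 rose and none fell, 0 and 0 of them past the 1.5-fold rule, with a median log2 of 0.29. MT-CO1, a subunit of cytochrome c oxidase, was at 6923, 7604 and 7519 CPM in wild type against 10872, 9516 and 8706 CPM in knockout embryos (log2 0.40 (SE 0.0816, adjusted p 0.000766)). Of 91 tested nuclear genes of oxidative phosphorylation (106 listed), 34 rose and 6 fell, 9 and 0 of them past the 1.5-fold rule, with a median log2 of 0.20. Beside ATP5F1B, the alpha subunit ATP5F1A rose from 335 ± 14.8 to 613 ± 60.7 CPM, and cycsb, a cytochrome c gene, from 65.8 ± 1.15 to 127 ± 2.72 CPM. The 6 falls became 2 without wild type replicate 3 or without kdm4aa knockout replicate 3. Of 30 tested glycolysis genes (40 listed), 16 rose and 6 fell, 4 and 2 of them past the 1.5-fold rule, with a median log2 of 0.45. ENO3, an enolase, rose from 75.8 ± 3.65 to 142 ± 16.8 CPM, PKM (ENSDARG00000099730), a pyruvate kinase, from 44.5 ± 5.49 to 74.2 ± 3.04 CPM, and PFKM (ENSDARG00000014179), a phosphofructokinase, fell from 3.76 ± 0.572 to 0.150 ± 0.148 CPM. Of 21 tested genes of nucleotide synthesis, 7 rose and 4 fell, 3 and 0 of them past the 1.5-fold rule, with a median log2 of 0.09. The 4 falls became 1 without kdm4aa knockout replicate 1 and 2 without wild type replicate 1 or 3. Beside CAD, the purine enzyme gene PFAS rose from 75.4 ± 5.99 to 141 ± 13.2 CPM, and GMPS was at 266 ± 20.4 CPM in wild type against 270.3 ± 14.6 CPM in knockout embryos without a call.

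Genes of redox defence rose more often than they fell, while over all genes tested 25.2% were called higher and 25.8% lower. For the Nrf2 and glutathione group, 20 rose and 5 fell of 40 tested genes of glutathione, peroxiredoxins and their Nrf2 control (median log2 0.49). The factor gene nfe2l2b was at 2.02, 1.31 and 1.59 CPM in wild type against 10.7, 9.14 and 11.03 CPM in knockout embryos (log2 2.65 (SE 0.194, adjusted p 3.15e-08)). Over the whole list of redox and xenobiotic genes 8 fell, or 5 without kdm4aa knockout replicate 2. gstp1.2, a glutathione transferase, rose from 89.3 ± 9.18 to 171 ± 9.44 CPM, and prdx1 (ENSDARG00000058734) from 48.8 ± 2.14 to 75.7 ± 4.19 CPM. KEAP1, which holds Nrf2 back and was chosen after its values were seen, rose from 26.8 ± 1.72 to 43.8 ± 4.93 CPM. The aryl hydrocarbon receptor gene ahr2 fell from 97.9 ± 1.47 to 49.1 ± 1.57 CPM, and CYP1B1, a P450 gene that this receptor induces, from 17.8 ± 3.89 to 3.65 ± 0.876 CPM.

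Hypoxia genes fell more often than they rose in the main fit, but were nearly balanced in some others. In the main fit 23.8% rose and 47.6% fell, against 25.2% and 25.8% over all genes tested. Of 21 tested hypoxia response genes (29 listed), 5 rose and 10 fell, 3 and 7 of them past the 1.5-fold rule, with a median log2 of −0.30. NDRG1 (ENSDARG00000010420), a stress-responsive gene, was at 24.1, 23.5 and 20.9 CPM in wild type against 1.66, 1.92 and 1.31 CPM in knockout embryos (log2 −3.82 (SE 0.162, adjusted p 5.66e-11)). The second gene of that symbol, ENSDARG00000032849, fell from 297 ± 14.7 to 152 ± 5.43 CPM. epoa, an erythropoietin gene, fell from 13.8 ± 2.82 to 2.41 ± 0.899 CPM, ca9, a carbonic anhydrase, from 20.7 ± 3.32 to 8.06 ± 0.678 CPM, and EPAS1 (ENSDARG00000057671), the factor known as Hif2 alpha, from 28.3 ± 3.27 to 13.3 ± 1.14 CPM. HIF1A was at 309.6 ± 22.2 CPM in wild type against 287 ± 13.5 CPM in knockout embryos and was not called, and hif1aa rose from 0.402 ± 0.148 to 2.52 ± 0.342 CPM. Without kdm4aa knockout replicate 3, 5 of the hypoxia genes were called higher and 6 lower. With DESeq2, and in edgeR with no filter on low counts, 6 were called higher and 7 lower.

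Lysosomal genes other than CTSB rose more often than they fell. Of 84 tested lysosomal genes (92 listed), 39 rose and 14 fell, 8 and 6 of them past the 1.5-fold rule, with a median log2 of 0.26. Of 14 tested cathepsins and related proteases, 10 rose and 1, CTSB, fell. CTSC, which activates serine proteases, was at 319, 294 and 306 CPM in wild type against 729.9, 619 and 729.5 CPM in knockout embryos (log2 1.18 (SE 0.0796, adjusted p 1.25e-08)). LGMN, an asparaginyl protease, rose from 157 ± 3.47 to 266 ± 10.7 CPM, and LIPA, the acid lipase, from 2.403 ± 0.292 to 23.7 ± 1.64 CPM. ATP6V0A1 (ENSDARG00000015174), a proton pump subunit, fell from 7.84 ± 0.460 to 1.35 ± 0.161 CPM, while atp6v1e1b, another subunit, rose from 10.6 ± 0.0261 to 24.6 ± 2.196 CPM. Of 41 tested autophagy genes, 13 rose and 10 fell, 2 and 1 of them past the 1.5-fold rule, with a median log2 of 0.18. Without wild type replicate 3, 8 autophagy genes were called higher. Autophagy genes were called higher for 31.7% and lower for 24.4%, near the 25.2% and 25.8% of all genes tested. Lysosomal genes stood at 46.4% and 16.7%.

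Of 44 tested genes of the apoptosis machinery (48 listed), 13 rose and 6 fell, 7 and 4 of them past the 1.5-fold rule, with a median log2 of 0.03. These are 29.5% and 13.6%, against 25.2% and 25.8% over all genes tested. The rises were thus near the share of all genes, and the falls below it. mcl1a, a survival gene, rose from 55.0 ± 6.06 to 116 ± 9.49 CPM, bcl2a, another, fell from 16.2 ± 0.278 to 5.98 ± 0.225 CPM, and the initiator caspase gene casp10 from 9.68 ± 0.113 to 3.95 ± 0.515 CPM. BAX was at 94.6 ± 2.44 CPM in wild type against 87.5 ± 4.49 CPM in knockout embryos, with no call. The cell cycle inhibitor gene cdkn1a was at 5.67, 5.13 and 6.26 CPM in wild type against 20.9, 13.7 and 19.1 CPM in knockout embryos, without overlap (log2 1.65 (SE 0.162, adjusted p 6.99e-07)). sesn2, a stress sensor gene, rose from 6.88 ± 0.677 to 19.3 ± 3.93 CPM, SESN1, chosen after its values were seen, from 11.8 ± 1.81 to 33.2 ± 10.6 CPM, and the death gene bbc3 from 4.91 ± 1.197 to 21.6 ± 4.88 CPM. PERP, a membrane protein gene of cell death and desmosomes, fell from 19.1 ± 2.53 to 7.45 ± 0.504 CPM, and the cyclin G gene CCNG1 was at 1264 ± 49.98 CPM in wild type against 1351 ± 77.8 CPM in knockout embryos and was not called.

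Genes that copy, repair and divide the genome changed in both directions. Of 64 tested DNA replication genes (65 listed), 24 rose and 10 fell, 4 and 2 of them past the 1.5-fold rule, with a median log2 of 0.09. Of 84 tested DNA repair genes, 18 rose and 14 fell, 3 and 2 of them past the 1.5-fold rule, with a median log2 of 0.02. Of 88 tested cell cycle and mitosis genes (90 listed), 28 rose and 20 fell, 7 and 4 of them past the 1.5-fold rule, with a median log2 of 0.08. The shares called higher and lower were 37.5% and 15.6% for replication, 21.4% and 16.7% for repair and 31.8% and 22.7% for the cell cycle. Over all genes tested they were 25.2% and 25.8%, so repair genes were called less often than genes at large. CDC45, a part of the replicative helicase, rose from 10.9 ± 1.28 to 25.5 ± 4.303 CPM, and RRM1, the large subunit of ribonucleotide reductase, from 304 ± 5.46 to 492 ± 13.98 CPM. dhfr, a folate enzyme gene of thymidylate supply, fell from 133 ± 8.29 to 62.9 ± 5.02 CPM. A pair of genes named TDG, a thymine glycosylase, moved apart, with ENSDARG00000013004 falling from 20.7 ± 0.744 to 5.74 ± 1.205 CPM and ENSDARG00000086450 rising from 7.61 ± 1.38 to 16.2 ± 0.183 CPM. The mismatch repair gene MSH6 rose from 120.3 ± 14.1 to 204 ± 16.5 CPM. Among mitotic genes, BIRC5 rose from 9.89 ± 0.458 to 26.02 ± 3.33 CPM and nuf2 from 17.8 ± 1.27 to 35.3 ± 2.21 CPM, and TPX2 fell from 661 ± 41.2 to 413 ± 6.73 CPM and CENPF from 267 ± 25.96 to 142 ± 19.6 CPM. CCNA2, an abundant cyclin, was at 1638 ± 160.2 CPM in wild type against 1642 ± 271 CPM in knockout embryos and was not called.

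Genes of Nodal signalling and mesendoderm fell more often than they rose, while over all genes tested 25.2% were called higher and 25.8% lower. In the Nodal pathway, which induces mesoderm and endoderm, none rose and 10 fell of 18 tested genes of ligands, receptors, inhibitors and Smads (median log2 −0.30). Both genes named ACVR2B, an activin receptor, fell, ENSDARG00000044422 from 186 ± 4.58 to 119.5 ± 16.6 CPM and ENSDARG00000103108 from 149 ± 11.04 to 97.8 ± 10.5 CPM. lft1, a secreted Nodal inhibitor that Nodal itself induces, was at 14.4, 10.23 and 13.8 CPM in wild type against 7.18, 5.005 and 5.48 CPM in knockout embryos (log2 −1.12 (SE 0.172, adjusted p 6.53e-05)). foxh1, the DNA-binding partner of Smads and chosen after its values were seen, fell from 314 ± 16.98 to 243 ± 11.2 CPM. Among Nodal targets, 2 rose and 7 fell of 19 tested genes (median log2 −0.05). tbxta, the notochord and tail factor Brachyury, was at 23.8, 17.6 and 25.3 CPM in wild type against 14.5, 11.9 and 12.2 CPM in knockout embryos (log2 −0.79 (SE 0.141, adjusted p 0.000257)). msgn1, a factor of the paraxial mesoderm, fell from 3.55 ± 1.21 to 0.326 ± 0.275 CPM, and EOMES (ENSDARG00000006640), a maternal T-box factor, was at 259.9 ± 10.23 CPM in wild type against 276 ± 47.6 CPM in knockout embryos and was not called.

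BMP signals set ventral fates, and their pathway showed falls at receptors and secreted modulators. Of BMP ligands, receptors and antagonists, 3 rose and 10 fell of 19 tested genes (median log2 −0.42). Those shares, 15.8% and 52.6%, stood beside 25.2% higher and 25.8% lower over all genes tested. BMPR1A (ENSDARG00000019728), a type I receptor, was at 163, 174 and 172 CPM in wild type against 80.8, 81.0 and 83.5 CPM in knockout embryos (log2 −1.05 (SE 0.0728, adjusted p 1.62e-08)). BAMBI (ENSDARG00000055381), a decoy receptor, fell from 73.5 ± 5.17 to 41.1 ± 3.23 CPM, and szl, a ventral secreted inhibitor of chordin breakdown, from 5.06 ± 1.11 to 0.521 ± 0.0883 CPM. ved, a ventral repressor downstream of BMP, was at 23.9, 15.5 and 19.4 CPM in wild type against 4.66, 2.79 and 4.97 CPM in knockout embryos (log2 −2.23 (SE 0.202, adjusted p 3.02e-07)). For the other effectors and targets, 5 rose and 4 fell of 17 tested genes (median log2 −0.09), ved included, and SMAD5 was at 553 ± 37.97 CPM in wild type against 584 ± 46.8 CPM in knockout embryos and was not called.

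Genes of the blastula fell more often than they rose. Of 28 tested pluripotency and blastula genes (30 listed), 3 rose and 13 fell, 1 and 3 of them past the 1.5-fold rule, with a median log2 of −0.20. These are 10.7% and 46.4%, against 25.2% and 25.8% over all genes tested. SOX11 (ENSDARG00000077811) was at 321, 246 and 328 CPM in wild type against 141, 175 and 154 CPM in knockout embryos (log2 −0.93 (SE 0.107, adjusted p 3.99e-06)), and ZIC2 (ENSDARG00000037178), another transcription factor, fell from 277 ± 22.5 to 185 ± 12.3 CPM. tbx16, a T-box factor of the mesoderm, fell from 365 ± 58.7 to 251 ± 20.002 CPM. pou5f3, chosen after its values were seen, fell from 1072 ± 86.6 to 917 ± 29.4 CPM, with an adjusted p of 0.0792 without wild type replicate 1, 0.0876 without wild type replicate 3 and 0.0563 without kdm4aa knockout replicate 2. In turn nanog, at 2335 ± 144 CPM in wild type against 2143 ± 90.3 CPM in knockout embryos, and sox19b, at 473 ± 65.04 CPM in wild type against 481 ± 2.34 CPM in knockout embryos, were not called. The apelin receptor gene aplnrb rose from 88.0 ± 19.8 to 195 ± 44.6 CPM.

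Fgf, Wnt and Hedgehog lists held many members of low level. Of 40 tested Fgf genes (63 listed), 4 rose and 12 fell, 1 and 6 of them past the 1.5-fold rule, with a median log2 of −0.09. Of 20 tested Fgf ligands and receptors 2 rose and 9 fell (median log2 −0.33). Among 20 tested feedback targets 2 rose, 3 fell and 15 were not called (median log2 0.03). FGFR1 (ENSDARG00000011190), an Fgf receptor, fell from 29.9 ± 3.16 to 18.7 ± 0.353 CPM, and the feedback inhibitor SPRY4 from 12.6 ± 1.93 to 7.60 ± 0.431 CPM. The more abundant gene of the symbol FGFR1, ENSDARG00000011027, was not called (log2 0.11). Its mean was 162 CPM in wild type against 175 CPM in knockout embryos. Of 58 tested Wnt genes (81 listed), 12 rose and 16 fell, 6 and 9 of them past the 1.5-fold rule, with a median log2 of −0.17. Wnt genes were called higher for 20.7% and lower for 27.6%, against 25.2% and 25.8% over all genes tested. The falls of Wnt genes were thus near the share of all genes. Fgf genes were called higher less often than all genes, and lower somewhat more often. ZNRF3, an E3 ligase that removes Wnt receptors, fell from 25.4 ± 5.60 to 9.43 ± 1.69 CPM, FZD3 (ENSDARG00000058692), one such receptor, from 26.9 ± 1.85 to 12.2 ± 2.84 CPM, and sp5l, a Wnt target, rose from 1.28 ± 0.205 to 5.09 ± 1.07 CPM. Of 16 tested Hedgehog genes (22 listed), 2 rose and 7 fell, 1 and 1 of them past the 1.5-fold rule, with a median log2 of −0.36. The transducer gene SMO fell from 15.25 ± 0.146 to 10.8 ± 1.52 CPM, and the factor GLI1 from 5.72 ± 0.505 to 3.67 ± 1.03 CPM. GLI1 lost its call without kdm4aa knockout replicate 1 (adjusted p 0.0754) and without kdm4aa knockout replicate 3 (adjusted p 0.0697). Without kdm4aa knockout replicate 1, 3 Hedgehog genes and 7 retinoic acid genes were called lower. Of 40 tested Notch and segmentation clock genes (50 listed), 10 rose and 4 fell, 4 and 3 of them past the 1.5-fold rule, with a median log2 of 0.03. Of 33 tested retinoic acid genes (57 listed), 9 rose and 12 fell, 3 and 3 of them past the 1.5-fold rule, with a median log2 of −0.18. Beside cyp26a1, RDH10 (ENSDARG00000012369), which makes retinal from retinol, rose from 60.5 ± 4.204 to 90.8 ± 3.74 CPM. Of 10 tested genes of synthesis and uptake 5 rose and 3 fell, and of 5 of degradation and storage 1 rose and 2 fell. Among 8 tested known targets of retinoic acid 1 rose and 3 fell (median log2 −0.30). meis1a, also in the retinoic acid list, fell from 3.58 ± 0.354 to 1.13 ± 0.401 CPM.

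Genes of the egg and the germ line rose more often than they fell, while over all genes tested 25.2% were called higher and 25.8% lower. Of 36 tested maternal and oocyte genes (39 listed), 18 rose and 4 fell, 5 and 1 of them past the 1.5-fold rule, with a median log2 of 0.30. The 4 falls became 7 with upper quartile scaling. cldnd, an egg claudin, was at 136, 173 and 141 CPM in wild type against 1211, 896 and 841 CPM in knockout embryos (log2 2.71 (SE 0.129, adjusted p 2.16e-10)). cth1, a maternal zinc finger gene, was at 319, 407 and 335 CPM in wild type against 891, 719.8 and 713 CPM in knockout embryos (log2 1.13 (SE 0.103, adjusted p 3.14e-07)). org rose from 38.7 ± 1.72 to 98.6 ± 4.36 CPM, CPEB1, which controls the tails of stored RNAs, from 51.04 ± 5.18 to 136 ± 19.4 CPM, and the egg coat gene zp3f.1 from 40.03 ± 3.33 to 71.0 ± 0.903 CPM. figla, an oocyte factor, fell from 21.7 ± 1.33 to 5.56 ± 1.26 CPM, and buc, the organizer of the Balbiani body, was at 341 ± 82.8 CPM in wild type against 385 ± 29.4 CPM in knockout embryos and was not called. The summed level of the list was 2829 to 3358 CPM in the wild-type libraries and 4998 to 6164 CPM in those of the knockout.

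Of 30 tested germ cell genes, 15 rose and 7 fell, 7 and 3 of them past the 1.5-fold rule, with a median log2 of 0.28. TDRD7, a Tudor protein of germ granules, was at 1.55, 0.829 and 1.01 CPM in wild type against 43.1, 37.5 and 43.01 CPM in knockout embryos (log2 5.19 (SE 0.176, adjusted p 6.13e-12)). NANOS3, needed to keep primordial germ cells, was at 6.49, 9.35 and 9.92 CPM in wild type against 33.6, 30.8 and 29.3 CPM in knockout embryos (log2 1.86 (SE 0.144, adjusted p 5.53e-08)). DND1, which shields germ line RNAs from microRNAs, rose from 21.5 ± 1.13 to 60.8 ± 2.15 CPM, and DAZL, chosen after its values were seen, from 38.1 ± 0.796 to 86.0 ± 28.99 CPM. The helicase gene DDX4, known as vasa, was at 341 ± 30.6 CPM in wild type against 330.5 ± 51.2 CPM in knockout embryos and was not called. Without wild type replicate 1, 4 germ cell genes were called lower. In whole embryos, fewer cells of a type and less RNA per cell cannot be told apart, which holds for each cell type named here. A difference in stage between the groups cannot be told apart from an effect of the genotype at the same stage, because no stage is given for any library.

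**Figure D4:**
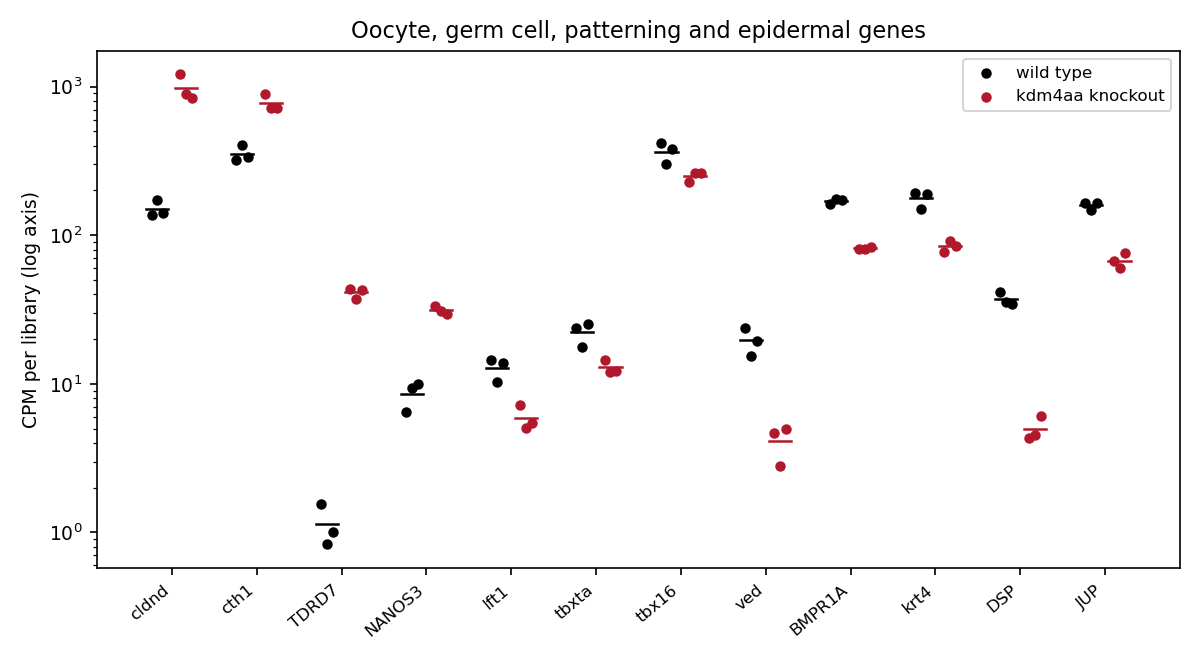
Points are the levels of 12 genes of the egg, germ line, gastrula and epidermis in each library, in CPM on a log axis, with wild type in black and the kdm4aa knockout in red and short lines at the group means. These genes too were picked among those whose groups do not overlap, and krt4, for example, stood at 191, 149.9 and 190.2 CPM in wild type against 77.4, 92.0 and 84.2 CPM in knockout embryos.

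Genes of the outer epithelium fell more often than they rose, while over all genes tested 25.2% were called higher and 25.8% lower. Of 45 tested genes of epidermis and periderm (69 listed), 4 rose and 23 fell, 2 and 14 of them past the 1.5-fold rule, with a median log2 of −0.62. DSP (ENSDARG00000076673), the desmosome protein desmoplakin, was at 41.7, 35.5 and 34.5 CPM in wild type against 4.35, 4.54 and 6.08 CPM in knockout embryos (log2 −2.89 (SE 0.142, adjusted p 3.09e-10)). JUP (ENSDARG00000070787), plakoglobin of the same junctions, was at 165, 149 and 165 CPM in wild type against 66.7, 59.9 and 75.6 CPM in knockout embryos (log2 −1.24 (SE 0.0915, adjusted p 3.23e-08)). PKP3, a plakophilin, fell from 32.4 ± 0.509 to 3.86 ± 0.550 CPM, and cldne, a claudin, from 75.3 ± 7.06 to 33.1 ± 2.85 CPM. Of 8 tested keratins 6 fell, among them krt4, of the outer layer, from 177 ± 23.6 to 84.5 ± 7.28 CPM, and krt5 from 18.7 ± 1.38 to 5.04 ± 1.45 CPM. These keratins and TP63, the master factor of the epidermis, which fell from 7.35 ± 0.555 to 2.34 ± 0.186 CPM, were chosen after their values were seen. spint1b, a protease inhibitor gene, rose from 111 ± 4.22 to 231 ± 26.1 CPM, and cldn7b, at 639.7 ± 48.2 CPM in wild type against 670.4 ± 60.8 CPM in knockout embryos, was not called. Without kdm4aa knockout replicate 2, 7 members were called higher. The summed level ran from 3558 to 4157 CPM in wild type and from 2894 to 3415 CPM in the knockout.

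**Figure D5:**
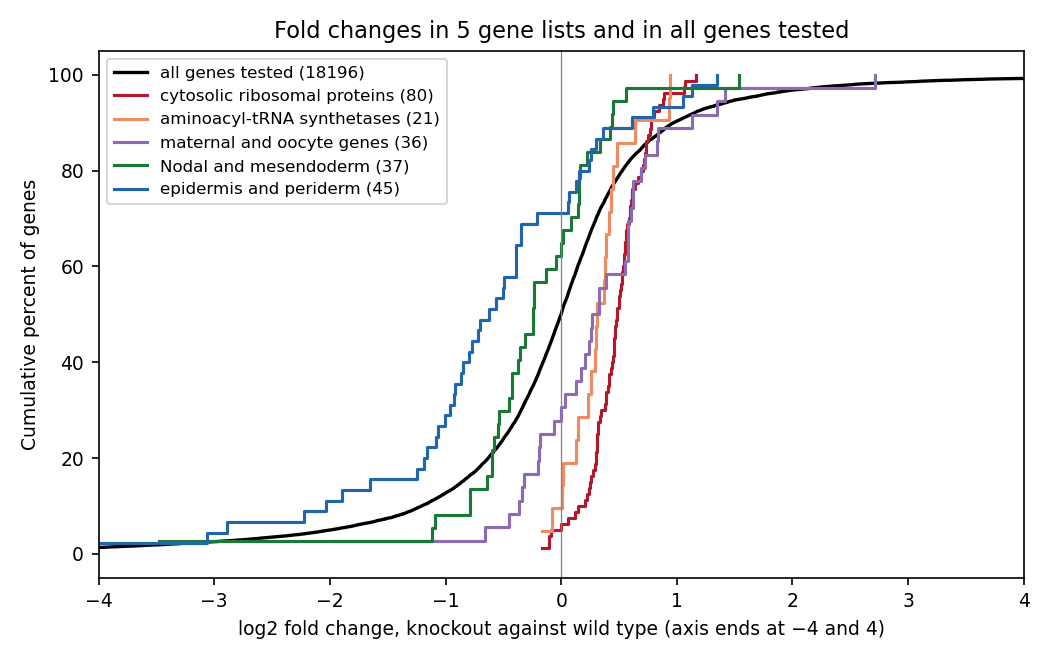
Lines give the cumulative percent of tested genes with a fitted log2 fold change up to the value on the x axis, for all 18196 genes and for 5 lists. The medians are 0.48 for cytosolic ribosomal proteins, 0.31 for aminoacyl-tRNA synthetases, 0.30 for maternal and oocyte genes, −0.24 for Nodal and mesendoderm and −0.62 for epidermis and periderm, against −0.001 over all genes.

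Genes of histone and DNA modification changed in both directions, mostly at shares near or below those of all genes tested. KDM4B and kdm4c, the other genes of the family, were chosen after their values were seen. KDM4B rose from 194 ± 18.8 to 228 ± 6.13 CPM, but its adjusted p was 0.110 without wild type replicate 2, 0.108 without wild type replicate 3, 0.0567 without kdm4aa knockout replicate 3 and 0.0801 with upper quartile scaling. The other gene, kdm4c, at 76.3 ± 1.90 CPM in wild type against 71.4 ± 5.36 CPM in knockout embryos, was not called. Of 27 tested histone lysine demethylase genes, 6 rose and 7 fell, 2 and 3 of them past the 1.5-fold rule, with a median log2 of −0.02. The 6 rises became 3 without wild type replicate 3, and 2 without kdm4aa knockout replicate 3 or with upper quartile scaling. KDM1A, which demethylates lysine 4, was at 63.7, 64.3 and 63.1 CPM in wild type against 166, 167 and 157 CPM in knockout embryos (log2 1.36 (SE 0.0738, adjusted p 9.75e-10)). kdm6bb, a demethylase of lysine 27, fell from 13.01 ± 1.39 to 0.239 ± 0.197 CPM, and KDM7A from 59.199 ± 0.283 to 26.1 ± 2.26 CPM. Of 55 tested histone methyltransferase and reader genes, 13 rose and 22 fell, 1 and 4 of them past the 1.5-fold rule, with a median log2 of −0.11. KMT2E fell from 72.3 ± 1.04 to 34.2 ± 2.47 CPM, and setd2, which places trimethylation on lysine 36, was at 788, 686 and 694 CPM in wild type against 456, 476 and 501 CPM in knockout embryos (log2 −0.60 (SE 0.0758, adjusted p 1.01e-05)). Among writers for lysine 9 of H3 and its readers, 5 rose and 5 fell of 19 tested genes (median log2 −0.01). Among those for lysine 36, 4 rose and 4 fell of 11 tested genes (median log2 0.46). Among those for lysines 4, 27 and 79 of H3 and lysine 20 of H4, 4 rose and 13 fell of 25 tested genes (median log2 −0.33). EZH2, which methylates lysine 27 and was chosen after its values were seen, fell from 249.9 ± 15.4 to 185 ± 10.5 CPM. Of 34 tested histone genes, 7 rose and 6 fell, 1 and 3 of them past the 1.5-fold rule, with a median log2 of 0.00. Of 18 tested DNA methylation genes (19 listed), 3 rose and 5 fell, 0 and 1 of them past the 1.5-fold rule, with a median log2 of −0.02. Demethylases were called higher for 22.2% and lower for 25.9%, histones for 20.6% and 17.6%, and DNA methylation genes for 16.7% and 27.8%. Over all genes tested the shares were 25.2% and 25.8%. The 22 falls among 55 histone methyltransferase and reader genes were a larger share than the latter.

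Cilia and antiviral genes were called at shares near those of all genes tested, and held single large changes in both directions. Of 123 listed cilia genes 87 were tested, 26 rose and 18 fell, and 10 and 12 did so by more than 1.5-fold. The 29.9% higher and 20.7% lower stood beside 25.2% and 25.8% over all genes tested. Past the 1.5-fold rule the shares over all genes were 8.44% and 10.5%. ift74, of intraflagellar transport, was at 7.42, 7.39 and 6.56 CPM in wild type against 43.9, 57.4 and 46.5 CPM in knockout embryos (log2 2.79 (SE 0.124, adjusted p 1.01e-10)). sspo, a secreted protein of the Reissner fibre, rose from 2.03 ± 0.144 to 126 ± 5.58 CPM, and DNAAF11, a dynein assembly factor, fell from 17.6 ± 2.59 to 1.42 ± 0.160 CPM. Of 39 tested interferon response genes (61 listed), 8 rose and 11 fell, 4 and 6 of them past the 1.5-fold rule, with a median log2 of −0.04. The shares called higher and lower were 20.5% and 28.2%. gbp3, a guanylate-binding protein, rose from 31.9 ± 1.81 to 127 ± 7.46 CPM, and gbp1 fell from 14.9 ± 2.31 to 2.59 ± 1.26 CPM. trim25, a ubiquitin ligase of RNA sensing, rose from 7.15 ± 0.929 to 45.3 ± 1.71 CPM, and adar was at 267 ± 30.8 CPM in wild type against 268 ± 44.05 CPM in knockout embryos and was not called.

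Tissue genes beyond the epidermis were mostly of low level. Of 82 tested genes of neural progenitors and neurons (139 listed), 19 rose and 23 fell, 12 and 11 of them past the 1.5-fold rule, with a median log2 of −0.02. In the neuronal part of this list, 6 rose and 16 fell of 33 tested genes (median log2 −0.81). In the part of anterior neural plate and patterning 8 rose and 4 fell of 30 (median log2 0.16). For progenitors and neurogenesis 5 rose and 3 fell of 19 (median log2 0.14). The whole list was called higher for 23.2% and lower for 28.0%, against 25.2% and 25.8% over all genes tested. Of 35 tested blood genes (58 listed), 6 rose and 10 fell, 3 and 7 of them past the 1.5-fold rule, with a median log2 of −0.34. The 6 rises became 3 without kdm4aa knockout replicate 1. Of 30 tested skeletal muscle genes (58 listed), 8 rose and 4 fell, 5 and 2 of them past the 1.5-fold rule, with a median log2 of 0.32. Of 23 tested endothelial genes (34 listed), 6 rose and 5 fell, 4 and 4 of them past the 1.5-fold rule, with a median log2 of −0.21. Of 14 tested heart genes (28 listed), 2 rose and 3 fell, 1 and 2 of them past the 1.5-fold rule, with a median log2 of −0.20. Of 83 tested genes of collagens and extracellular matrix (117 listed), 24 rose and 21 fell, 18 and 12 of them past the 1.5-fold rule, with a median log2 of −0.23. The muscle list was summed at 685.8 to 703.3 CPM in wild type and 781.4 to 925.5 CPM in the knockout, and tpm1, a tropomyosin gene, was at 56.2 ± 6.55 CPM in wild type against 63.7 ± 11.9 CPM in knockout embryos and was not called. Of 42 tested genes of the Atf4 amino acid response (44 listed), 19 rose and 11 fell, 5 and 3 of them past the 1.5-fold rule, with a median log2 of 0.14. Of 71 tested spliceosome genes (74 listed), 26 rose and 5 fell, 1 and 0 of them past the 1.5-fold rule, with a median log2 of 0.18. The 26 rises became 15 without wild type replicate 3 or kdm4aa knockout replicate 1, and 17 without wild type replicate 2 or with upper quartile scaling. Of 43 tested proteasome genes, 10 rose and 4 fell, 0 and 0 of them past the 1.5-fold rule, with a median log2 of 0.10. Of 28 tested cholesterol synthesis genes (30 listed), 7 rose and 6 fell, 1 and 2 of them past the 1.5-fold rule, with a median log2 of 0.15. The 7 rises of cholesterol genes became 4 without wild type replicate 1.

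Replicates are named as separate samples, but no source ties them to separate clutches, and the p-values then reflect only how far these libraries scatter, which may be technical. Levels are shares of a library, and total RNA per embryo is not known.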

How the data were processed

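RNA was measured in 9 samples of zebrafish embryos, and the 3 wild-type and 3 kdm4aa knockout libraries were analysed here. The deposited table holds whole-number counts per Ensembl gene and library, not normalized. Genome builds GRCz11 and danRer11 are named in the submitters' processing notes, while aligner, counter, annotation release and strandedness were not given in the sources used here. Near-identical, overlapping and antisense genes may therefore share or lose reads without a trace in the counts. Columns were assigned to samples by the column names in the sample descriptions, and genotypes and replicate numbers by the titles.

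The counts of the 6 libraries alone were filtered with filterByExpr, scaled by TMM and put to the quasi-likelihood F-test of edgeR 4.0.16 (R 4.3.3), with 1 mean per group. P-values are two-sided. Benjamini-Hochberg adjustment ran over all 18196 genes tested, and the threshold was 0.05. A second, stricter rule tested for changes above 1.5-fold with glmTreat at the same threshold. From these deposited counts, CPM in TMM-scaled libraries were computed here and are given per library or as mean ± SD (n = 3). Standard errors (SE) are the size of the log2 value over the root of F, and are approximate. The model was run on simulated counts with 1 common spread and 200 changed genes. It recovered 52.2% of 1.5-fold, 98.5% of 2-fold and 100% of 4-fold changes, and called 8 of 17712 unchanged genes. Of the 2-fold changes, 31.3% passed the 1.5-fold rule. The changed genes were drawn only from those above a minimum mean count, so recovery among genes with few counts was not tested. Far fewer genes changed in the simulation than were called here, so it does not test the scaling in such data.

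Symbols came from a table of names that covered 29201 identifiers. In it 1719 symbols are on more than 1 identifier, so the identifier is printed for those, and the paralog that such a symbol means is uncertain. Names of zebrafish genes in capitals are as the table gives them. The 69 gene lists and the genes named were chosen with earlier results of these data known. Not every list, and not every gene in them, is reported here. Named are kdm4aa, kdm4ab, cyp26a1, the 12 largest rises and 12 largest falls in CPM past the stricter rule, and from each list members taken from the 6 called ones with the smallest p whose groups did not overlap and from the 2 uncalled ones with the highest level. The text marks any other gene as picked with its values known. The RefSeq gene table of assembly GRCz12tu served only for the order of genes along chromosomes. Alternatives were DESeq2 1.42.0, 2 other scalings, other filters, a replicate block, fits with 8 and 9 libraries, and leaving out each library. No 2 replicates agreed within sampling noise: the chi-square between their counts was at least 10.17 per gene.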

Additional observations from a re-analysis of the deposited data

How the results depend on the processing

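No gene called here changed sign under any alternative. Genes called higher and lower, 4588 and 4702, ran over 3973 to 4453 and 3990 to 4475 when 1 library was left out, and genes past the 1.5-fold rule, 1535 and 1911, over 1361 to 1538 and 1638 to 1868. When all 9 libraries shared 1 estimate of the spread these counts were 823, 864, 311 and 406, and cyp26a1, at a log2 of −0.49, had an adjusted p of 0.121. The other alternatives kept each of these counts over all genes within 1.5 times. Without a library the log2 value of cyp26a1 ran from −0.593 to −0.399 and that of kdm4aa from −0.254 to −0.117, on the same side of the threshold. A fit with the replicate block called 4407 genes higher and 4472 lower, and 1442 and 1801 past the 1.5-fold rule. Same-numbered libraries did not deviate together, with correlations of −0.038, −0.008 and 0.003, so the numbers are not shown to pair samples. Upper quartile scaling shifted the median of all genes to −0.043 and the share of calls that were higher from 49.4% to 45.1%. Between the scalings and DESeq2, which was run without the edgeR filter on low counts, the median changed sign for 13 lists. Among them were apoptosis machinery, DNA repair, Notch, retinoic acid and neural genes, for which no direction is drawn. For retinoic acid it was −0.18 and −0.22 with the 2 other scalings, but 0.36 both in DESeq2 and in edgeR with no filter. For neural genes it was −0.02 and −0.06 with those scalings, and 0.02 in both fits without the filter. Of the counts past the 1.5-fold rule that reached 5, those of 5 lists moved by over 1.5 times without 1 library, among them the 8 rises of lysosomal genes, which became 5 without kdm4aa knockout replicate 3, and the 5 rises of membrane traffic genes, which became 3 without wild type replicate 3 or kdm4aa knockout replicate 1. With a minimum of 1 CPM in 3 libraries the 19 rises of neural genes became 12. With DESeq2 the 8 rises of lysosomal genes past the 1.5-fold rule became 5, and the 5 of membrane traffic became 3. The 4 of the unfolded protein response list became 1. Over all genes DESeq2 called 1124 higher and 1450 lower by that rule. Genes with few counts in a group have fitted folds that depend on the prior count.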

Other observations

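Genes that bind iron and genes of the cytoskeleton held rises of abundant transcripts. Of 24 tested iron and heme genes 8 rose and 3 fell (6 to 8 and 1 to 3 without 1 library). fthl27, a ferritin gene, rose from 276 ± 17.7 to 550.4 ± 59.6 CPM and fth1a, another, from 598 ± 22.8 to 740.5 ± 59.16 CPM, while tfr1a, a transferrin receptor gene, fell from 5.06 ± 0.298 to 2.39 ± 0.432 CPM. Of 45 tested actin and tubulin genes 16 rose and 9 fell (10 to 17 and 8 to 10 without 1 library), with 10 rises without kdm4aa knockout replicate 3. The tubulin genes tubb4b and tubb5 rose from 212 ± 8.70 to 417 ± 36.7 CPM and from 27.3 ± 2.4002 to 83.6 ± 5.58 CPM, and CFL1, the actin-severing cofilin, from 444 ± 5.40 to 653 ± 22.6 CPM. VCL (ENSDARG00000098695), the adhesion protein vinculin, fell from 27.2 ± 2.44 to 12.4 ± 2.46 CPM.

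In a short list of antigen presentation genes, more were called lower than higher. Of 27 tested genes of the immunoproteasome and antigen presentation 6 rose and 10 fell (6 to 7 and 10 to 11 without 1 library). These are 22.2% and 37.0%, against 25.2% and 25.8% over all genes tested, and the median log2 of the list was −0.09. TAP1, a subunit of the peptide transporter, fell from 10.19 ± 2.41 to 0.420 ± 0.248 CPM, and the tapasin genes tapbp.1 and tapbp.2, which load peptides onto class I molecules, from 24.95 ± 1.91 to 7.17 ± 1.35 CPM and from 18.7 ± 0.662 to 7.70 ± 0.999 CPM. PSMB10, an immunoproteasome subunit, rose from 1.07 ± 0.253 to 6.57 ± 0.389 CPM.

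Further lists are given by their counts, each with the range when 1 library was left out. Over all genes tested 25.2% were called higher and 25.8% lower. Circadian clock genes stood at 26.9% and 19.2%, fatty acid genes at 24.1% and 27.6% and nonsense-mediated decay genes at 12.5% and 18.8%. Kidney genes stood at 31.8% and 31.8% and yolk syncytial genes at 41.7% and 8.33%. No direction is read from the counts of these short lists. Of 12 tested genes of the yolk syncytial layer and lipoproteins 5 rose and 1 fell (5 to 7 and 1 without 1 library), and apoeb, an apolipoprotein gene, rose from 217 ± 26.05 to 309 ± 16.4 CPM. Of 26 tested circadian clock genes 7 rose and 5 fell (6 to 7 and 3 to 5 without 1 library), and BMAL1 (ENSDARG00000035732), a clock activator, rose from 6.61 ± 1.07 to 16.5 ± 0.913 CPM. Of 35 tested genes of neural crest and pigment 5 rose and 9 fell (4 to 6 and 5 to 8 without 1 library), and snai2, a Snail-family repressor gene, fell from 205 ± 25.6 to 137 ± 4.38 CPM. Of 22 tested kidney genes 7 rose and 7 fell (6 to 7 and 4 to 7 without 1 library), and NPHS1, nephrin of the kidney filter, fell from 23.3 ± 1.33 to 6.02 ± 0.989 CPM. For 21 tested notochord and cartilage genes 5 rose and 7 fell (3 to 5 and 6 to 8 without 1 library), and noto, a notochord factor gene, was at 34.8 ± 6.88 CPM in wild type against 38.9 ± 2.4002 CPM in knockout embryos and was not called. Among 28 tested eye genes 8 rose and 6 fell (6 to 11 and 5 to 6 without 1 library), and among 17 of ear and lateral line 3 rose and 4 fell (3 to 5 and 4 without 1 library). Among 14 tested genes of liver, pancreas and intestine 4 rose and 2 fell (4 to 6 and 2 to 3 without 1 library), among 16 of ionocytes and mucous cells 4 rose and 5 fell (4 to 5 and 3 to 4 without 1 library), and among 4 of the hatching gland none rose and 1 fell (0 and 1 without 1 library). Among 23 tested genes of complement and coagulation 3 rose and 5 fell (3 to 6 and 5 to 7 without 1 library), and among 21 of the Hippo and Yap pathway 6 rose and 5 fell (4 to 6 and 3 to 6 without 1 library). Among 29 tested genes of fatty acid metabolism 7 rose and 8 fell (6 to 9 and 5 to 8 without 1 library), among 25 of cohesin and condensin 7 rose and 3 fell (6 to 8 and 2 to 4 without 1 library), among 16 of nonsense-mediated decay 2 rose and 3 fell (1 to 2 and 2 to 3 without 1 library), and among 10 hox genes 3 rose and none fell (2 to 4 and 0 without 1 library).

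Pairs of genes with the same symbol were compared. Of 1034 symbols on exactly 2 tested identifiers, both genes were called for 287. They moved in the same direction in 168 of these and in opposite directions in 119. Of 47 pairs with both genes past the 1.5-fold rule, 24 moved in opposite directions, among them RRM2 and TDG. Over all genes tested 51.1% were called, and 49.4% of the calls were higher.

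Calls were also counted along the chromosomes. Among 12292 tested genes that could be placed by a unique symbol, 17.6% passed the 1.5-fold rule. Of the 50 placed genes nearest to kdm4aa, 25 on each side, 9 did (18.0%). On chromosome 6, which carries kdm4aa, the share was 21.6% of 538 genes. Over the chromosomes it ran from 11.3% of 478 genes on chromosome 21 to 25.5% of 419 genes on chromosome 15.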
